A study of Mus musculus with 4 samples.

Results

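The genes described here were 41 genes of the cell cycle and DNA replication, chosen as the rows of the deposited gene expression table whose gene symbol equalled a name on a list; all 41 were found among the 23995 symbols of the table. Of them, 16 act in S phase, when DNA is copied (Ccne1, Ccne2, Rrm1, Rrm2, Tyms, Tk1, Pcna, Mcm2 to Mcm7, Cdc6, Cdt1 and Gins2), and 23 act in mitosis or mark dividing cells (Mki67, Top2a, Ccna2, Ccnb1, Ccnb2, Cdk1, Cdc20, Aurka, Aurkb, Bub1, Bub1b, Birc5, Plk1, Tpx2, Kif11, Kif20a, Kif23, Cenpa, Cenpe, Cenpf, Nusap1, Prc1 and Ube2c). Stmn1 and Hmgb2, a microtubule regulator and a chromatin protein that are often high in dividing cells, were kept apart as 2 other members. The rule uses no measured value.

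Sorted blood monocytes gave 4 RNA-seq libraries, 1 per combination of genotype and subset. RBP-J-deficient mice carried floxed alleles of the RBP-J gene (RBP-Jfl/fl) together with Lyz2-Cre, and the control mice carried Lyz2-Cre with intact RBP-J and are titled WT, so that the Cre knock-in in the lysozyme gene was shared by both genotypes. Lyz2-Cre acts in monocytes, macrophages and neutrophils and in their precursors, so deletion was neither limited to blood monocytes nor to one subset. Ly6Chi monocytes are the classical cells that leave the bone marrow, and Ly6Clo monocytes are the nonclassical cells that patrol the vessel wall and derive largely from Ly6Chi cells. By the study's methods mice in experiments were matched for sex and age, while the labels give neither the strain, sex nor age of the mice, nor how many animals a library represents, and name no treatment. RBP-J is the DNA-binding protein through which Notch receptors control transcription, and Rbpj itself was at 8.299 and 2.43 FPKM in control and RBP-J-deficient Ly6Clo monocytes and 14.4 and 2.85 in the respective Ly6Chi libraries. It was lower in both RBP-J-deficient libraries, though not listed at 0. Values are FPKM, fragments scaled to transcript length and library size, so that levels of different genes are compared per length.

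Proliferating cells switch these genes on in 2 waves. At the G1/S boundary E2F factors turn on the genes for nucleotide supply, for the MCM helicase that opens DNA and for the factors that load it, and in G2 and M the MuvB complexes with B-MYB and FOXM1 turn on cyclin B, the Aurora kinases and the spindle and kinetochore genes. Cells that have left the cycle hold both waves down through RB family proteins and the DREAM complex. Monocytes arise from dividing bone marrow precursors and circulate mostly as non-dividing cells, and in quiescent cells some replication genes, above all the clamp gene Pcna, which also serves DNA repair, keep a basal level.

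With 1 library per group there was no replicate check: no test was made and no error can be given for any value. Log2 ratios were computed on (FPKM + 1), and a gene was called higher or lower when it differed at least 2-fold on that scale, a log2 ratio of 1 or more in size. The added 1 pulls genes under 1 FPKM towards 0, so a gene with a low level could hardly be called. Of 28 member ratios past 2-fold over the 4 comparisons, all 28 stayed so with 0.1 added in place of 1 and 4 with 5 added, so most of the calls rest on levels of a few FPKM. The number of reads behind a value is unknown, because the table gives no counts. Each row has a status code, which over the members' rows was OK in 171 and NOTEST, a row left untested, in 75. Ccne2, Cdc6, Ccnb1, Cdk1, Bub1, Tpx2, Kif11, Cenpf and Nusap1 had NOTEST only, and Mki67 had both codes. The summed FPKM of all genes ranged from 711510.0 to 885652 per library, and 8985 to 9394 symbols reached 1 FPKM. Actb was at 22795 and 27260.3 FPKM in the control libraries while the RBP-J-deficient ones list it at 0, so a 0 in this table can be a failed estimate and is written below as listed at 0. Log2 ratios moved with the GC content of transcripts: across 6086 genes with a mean of at least 5 FPKM, Spearman's rho was -0.37 for RBP-J-deficient over control in Ly6Clo cells, -0.29 in Ly6Chi cells, and 0.17 and 0.35 for Ly6Chi over Ly6Clo in control and RBP-J-deficient cells. Genes are not independent replicates, and the part of this trend in the ratios below was not tested beyond the corrected values given beside them.

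All 12 monocyte markers found were at 10 FPKM or more in every library, among them Csf1r, the receptor for the monocyte growth factor, at 407, 158, 307 and 213 FPKM in control Ly6Clo, RBP-J-deficient Ly6Clo, control Ly6Chi and RBP-J-deficient Ly6Chi cells. In the same order, Ly6c2, which encodes the sorting antigen, was at 10.9, 78.3, 2013 and 1594 FPKM. Some markers that tell the subsets apart also differed between the Ly6Clo libraries of the 2 genotypes. Nr4a1, the factor that Ly6Clo cells depend on, was at 618 and 65.6 FPKM in control and RBP-J-deficient Ly6Clo cells, and Ace at 109 and 17.7. Treml4 was at 1018 and 513, just inside 2-fold, and Ccr2, the chemokine receptor of Ly6Chi cells, at 59.2 and 474. The monocyte markers Cx3cr1 and Spn differed less, at 88.1 and 81.2 and at 61.5 and 44.8 FPKM. By flow cytometry and qPCR the study itself reports similar Nr4a1 expression in Ly6Clo cells of both genotypes, unlike these single libraries. Of the 12 markers, 3 were at least 2-fold higher and 3 lower in RBP-J-deficient Ly6Clo cells. Precursors that still divide could add cell cycle transcripts, and their markers differed between libraries. Summed over 4 progenitor markers the level was 2.47, 0.2796, 14.1 and 5.83 FPKM, most of it Flt3 in the Ly6Chi libraries (12.6 and 5.32), with Kit listed at 0 in both Ly6Clo libraries and at 0.1303 in control and 0.00919 in RBP-J-deficient Ly6Chi cells. Summed over 8 neutrophil and precursor markers it was 6.32, 16.5, 70.8 and 63.1 FPKM, with Mpo listed at 0 in every library and the granule protease gene Prtn3 at 0, 2.798, 29.5 and 25.02. The neutrophil granule genes Camp and Ngp, made in precursors, were at 5.52 and 4.87 FPKM in RBP-J-deficient Ly6Chi cells and at 0 to 0.185 in the other 3 libraries. B cell markers summed to 67.98, 102, 26.2 and 47.2 FPKM over 6 genes, with Pax5 listed at 0 in 3 libraries, erythroid markers to 1583, 277, 359.8 and 387 over 6, and platelet markers to 126, 124, 350.3 and 293 over 5. T cell and NK cell markers summed to at most 1.89 and 3.31 FPKM. The part of such cells in the values below was not tested. In bulk RNA, fewer cycling cells and less RNA of a gene per cell cannot be told apart.

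Promoter sequences are given because the waves of cell cycle transcription are known to act through short motifs in them, and because RBP-J binds DNA. RefSeq windows on GRCm38.p6, the build the deposited coordinates also use, ran from 250 bases before to 50 bases after the transcription start, and were found for 33 of the 41 members in 35 windows (Mcm7 and Prc1 had a pair each). None was found for Ccne2, Mcm4, Gins2, Ccna2, Aurkb, Tpx2, Kif20a and Stmn1. On either strand, 4 motifs were searched as plain letters: the cell cycle homology region (CHR) TTTGAA or TTCGAA, to which MuvB complexes bind; the CCAAT box CCAAT, to which NF-Y binds; the E2F site in the forms TTTCCCGC, TTTCGCGC, TTTGCCGC and TTTGGCGC; and the RBP-J site GTGGGAA. The E2F forms can overlap each other and a CCAAT box.

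A CHR was in 16 of 20 mitotic windows (80%), in 2 of 14 S phase windows (14.3%) and in 19.2% of all 32851 windows of the table. E2F sites went the other way, with 6 of 14 S phase windows (42.9%), 1 of 20 mitotic ones (5%) and 2.26% of all windows. The 6 with an E2F site were Mcm3, Mcm5, Mcm6, Mcm7, Cdt1 and Cdc6, all of which load or form the helicase, and the mitotic one was Cdk1. CCAAT boxes were in 90% of mitotic, 64.3% of S phase and 37.4% of all windows. The RBP-J site was in the window of Mcm3 and in both of Prc1, 8.57% of the members' windows against 6.38% of all. The Prc1 windows overlap (chr7:80294201-80294500 and chr7:80294226-80294525), so their matches can be the same site counted again. By gene, Mcm3 and Prc1 alone of the 33 members with a window held the site, and no excess over all windows is read from it. A match is a run of letters and no binding was measured, and a window without one says only that these letters were not in it.

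**Figure D1:**
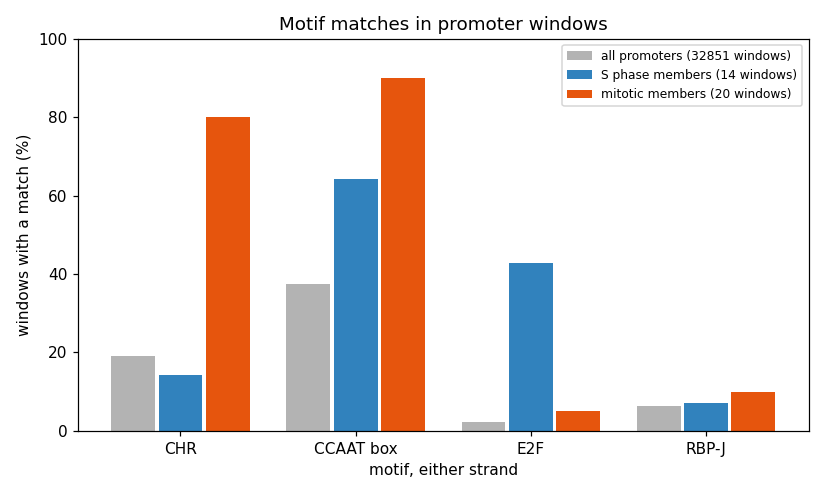
Share of RefSeq promoter windows (bars, %, axis from 0) that hold each motif on either strand, for all windows, S phase members and mitotic members. The CHR bar is highest for mitotic members (80%) and the E2F bar for S phase members (42.9%), while the RBP-J bars lie between 6.38% and 10%. The RBP-J bar of mitotic members comes from the overlapping windows of a single gene, Prc1.

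The windows of 6 members are printed from 250 bases before to 30 bases after the start, with each motif match in capitals. They are the S phase and mitotic members with the highest level (Pcna and Cenpa), Mki67, and Mcm6, Mcm7 and Cdc20, which were picked after their values were seen because they stood at least 2-fold apart between libraries. Mcm7 is shown by the window farther upstream of its pair.
Pcna, chr2:132253151-132253430, reverse strand: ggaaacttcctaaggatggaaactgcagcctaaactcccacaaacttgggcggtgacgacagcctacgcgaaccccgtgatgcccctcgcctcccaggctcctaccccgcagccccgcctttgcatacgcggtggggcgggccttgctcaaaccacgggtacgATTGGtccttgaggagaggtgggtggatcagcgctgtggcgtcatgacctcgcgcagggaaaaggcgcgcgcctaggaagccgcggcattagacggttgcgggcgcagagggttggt
Mcm6, chr1:128359676-128359955, reverse strand: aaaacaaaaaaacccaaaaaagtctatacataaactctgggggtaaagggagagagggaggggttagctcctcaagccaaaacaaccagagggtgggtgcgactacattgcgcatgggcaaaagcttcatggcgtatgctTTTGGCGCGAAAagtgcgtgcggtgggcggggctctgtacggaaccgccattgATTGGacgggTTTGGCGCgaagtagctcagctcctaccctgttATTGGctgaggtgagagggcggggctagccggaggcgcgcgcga
Mcm7, chr5:138171854-138172133, reverse strand: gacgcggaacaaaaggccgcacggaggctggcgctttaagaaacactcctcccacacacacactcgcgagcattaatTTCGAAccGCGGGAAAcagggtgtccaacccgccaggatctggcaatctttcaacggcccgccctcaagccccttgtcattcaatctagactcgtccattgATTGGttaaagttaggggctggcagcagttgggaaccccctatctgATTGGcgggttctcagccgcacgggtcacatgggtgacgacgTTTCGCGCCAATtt
Cenpa, chr5:30666636-30666915, forward strand: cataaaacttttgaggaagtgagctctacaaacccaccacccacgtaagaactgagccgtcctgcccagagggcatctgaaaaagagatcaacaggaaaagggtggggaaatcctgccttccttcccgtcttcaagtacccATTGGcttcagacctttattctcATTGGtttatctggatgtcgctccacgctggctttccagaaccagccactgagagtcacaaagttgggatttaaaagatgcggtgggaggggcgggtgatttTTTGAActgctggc
Cdc20, chr4:118437314-118437593, reverse strand: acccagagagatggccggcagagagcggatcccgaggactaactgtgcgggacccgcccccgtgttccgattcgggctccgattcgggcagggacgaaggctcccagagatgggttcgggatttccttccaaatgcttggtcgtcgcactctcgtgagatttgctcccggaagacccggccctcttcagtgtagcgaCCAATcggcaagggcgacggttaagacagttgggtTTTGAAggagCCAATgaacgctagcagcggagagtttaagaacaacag
Mki67, chr7:135716350-135716629, reverse strand: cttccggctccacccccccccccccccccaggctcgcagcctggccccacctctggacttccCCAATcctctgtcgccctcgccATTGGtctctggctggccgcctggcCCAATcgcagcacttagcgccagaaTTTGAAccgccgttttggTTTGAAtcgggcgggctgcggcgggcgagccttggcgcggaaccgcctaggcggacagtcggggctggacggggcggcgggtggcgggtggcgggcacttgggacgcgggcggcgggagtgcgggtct
Counted from the start, Mcm6 has E2F matches that begin at -110, -106 (reverse strand, overlapping the first) and -47, and CCAAT boxes at -57 and -14. Mcm7 has an E2F match at -165 beside a CHR at -173, and another at 17 that runs into a CCAAT box at 24. Cdc20 has its CHR at -18 between CCAAT boxes at -53 and -8, Mki67 has CHRs at -116 and -98 with 3 CCAAT boxes before them, and Cenpa has CCAAT boxes at -109 and -86 with a CHR after the start, at 17. Pcna has a single CCAAT box, at -87, and none of the other motifs as spelled here.

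Most of these genes were low in all 4 libraries, the mitotic ones above all. Of the 41 members, 20, 21, 20 and 21 reached 1 FPKM in control Ly6Clo, RBP-J-deficient Ly6Clo, control Ly6Chi and RBP-J-deficient Ly6Chi monocytes, and 15 stayed under 1 FPKM in every library. Only Pcna, Hmgb2 and Mcm4 were at 10 FPKM or more in all 4. S phase and mitotic genes stood apart: the median S phase member was at 6.91, 2.47, 2.49 and 2.097 FPKM and the median mitotic member at 0.517, 0.3096, 0.2902 and 0.351. Of 23 mitotic members 13 were under 1 FPKM in every library and none reached 10 in any, whereas 8 of 16 S phase members were at 1 FPKM or more in every library. The mitotic members together made up 7.94% to 13.6% of the members' summed FPKM.

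**Figure D2:**
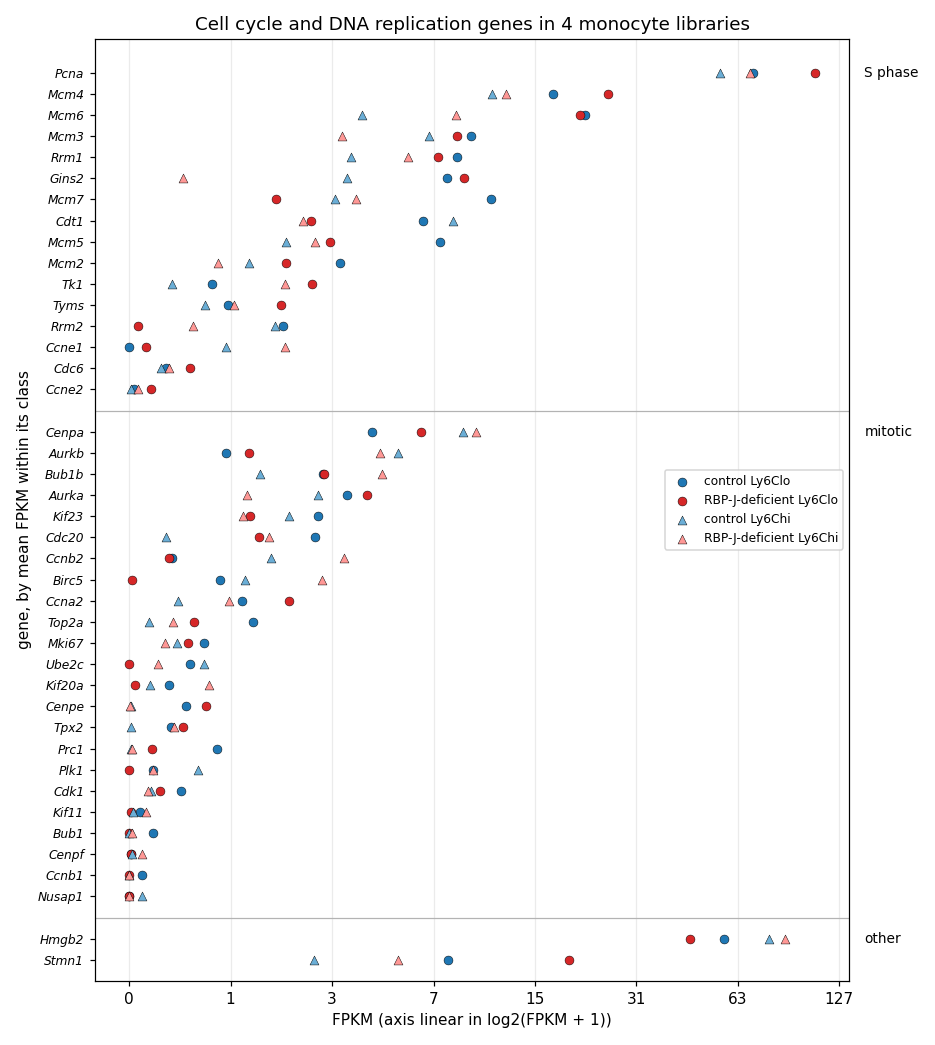
FPKM of each of the 41 members (rows, grouped as S phase, mitotic and other and ordered by mean) in the 4 libraries (points), on an axis linear in log2(FPKM + 1). Pcna and Hmgb2 lie far to the right in all 4 libraries, the MCM genes in the middle, and 13 of the 23 mitotic genes are under 1 FPKM in every library.

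Mki67, which encodes the antigen Ki-67 that marks cells outside G0, was at 0.671 and 0.492 FPKM in control and RBP-J-deficient Ly6Clo monocytes and 0.383 and 0.277 in the respective Ly6Chi libraries. All 4 values were under 1 FPKM, and Ly6Chi cells were not above Ly6Clo cells in either genotype. Pcna, the sliding clamp of DNA polymerases, was the highest member by mean level, at 69.8 and 107 FPKM in control and RBP-J-deficient Ly6Clo monocytes and 55.8 and 68.5 in the respective Ly6Chi libraries. Hmgb2, a DNA-bending protein of the high mobility group, followed at 57.02 and 45.1 FPKM in control and RBP-J-deficient Ly6Clo monocytes and 77.97 and 87.5 in the respective Ly6Chi libraries. Together Pcna and Hmgb2 held 49.8% to 65.4% of the members' summed FPKM, Pcna being higher in each Ly6Clo library and Hmgb2 in each Ly6Chi library. The next 4 by mean level were Mcm4, Mcm6, Stmn1 and Cenpa. Several mitotic genes had very low values or were listed at 0: Ccnb1, the main mitotic cyclin, was at 0.0938 FPKM in control Ly6Clo cells and listed at 0 in the other 3 libraries, Nusap1 was listed at 0 in all but control Ly6Chi cells, where it was at 0.09201, and Cenpf, Kif11 and Bub1 did not exceed 0.179 FPKM anywhere.

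In Ly6Clo monocytes most members were within 2-fold between the genotypes, while Mcm7, Mcm5, Cdt1 and Rrm2 had lower values in RBP-J-deficient cells. Of the 41 members, 4 were at least 2-fold lower (9.76%), against 4.73% of all 23995 symbols and 11.4% of the 9419 symbols with a mean of at least 1 FPKM, and 1 was at least 2-fold higher (2.44%), against 3.83% and 9.22%. The share of all 41 members thus lay between the background of all symbols and that of expressed ones for lower genes, and under both for higher ones. The expressed background is of an unlike set, since 24 of the 41 members had a mean of at least 1 FPKM. Of these 24, 4 were lower and 1 higher. All 4 lower genes act in S phase and none of the 23 mitotic members was called in either direction. The median log2 ratio was 0.057 over S phase members and -0.13 over mitotic members, beside 0.042 over symbols with a mean of at least 1 FPKM and 0 over all symbols. The S phase median took the other sign under 4 of the 6 alternatives, among them when the FPKM were rescaled to a common sum (-0.23), which moves the median expressed gene to -0.22, and under the GC correction (-0.12), and no direction is read from it. Beside the subset markers Nr4a1, Ace, Treml4 and Ccr2 given above, markers of other cells also differed between both Ly6Clo libraries: progenitor markers summed to 2.47 FPKM in the control and 0.2796 in the RBP-J-deficient library, erythroid markers to 1583 and 277, and the B cell genes Cd79a, Ms4a1 and Cd22 were at 9.02 and 1.13, 3.27 and 0.0603, and 12.9 and 0.563 FPKM, while Cd79b was at 41.9 and 100.2. Their part in the ratios was not tested.

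Mcm7, a subunit of the MCM helicase, was at 10.9 and 1.73 FPKM in control and RBP-J-deficient Ly6Clo monocytes and 3.07 and 3.698 in the respective Ly6Chi libraries. Control Ly6Clo cells stood above the other 3 libraries, and the log2 ratio of RBP-J-deficient over control was -2.12 in Ly6Clo and 0.21 in Ly6Chi cells; it was -1.91 in Ly6Clo cells after the GC correction. Mcm7 lies on the reverse strand at chr5:138164583-138172422 (GRCm38), and in GENCODE its exons overlap exons of Mir25 and Mir93 on the same strand and of Ap4m1 and Cops6 on the opposite strand, so reads of these genes cannot be told apart where the counting did not use strand, which is not given in the sources used here. Mcm5, another subunit (chr8:75109569-75128439), was at 7.35 and 2.93 FPKM in control and RBP-J-deficient Ly6Clo monocytes and 1.92 and 2.56 in the respective Ly6Chi libraries. It too was highest in control Ly6Clo cells, with log2 ratios of -1.09 in Ly6Clo and 0.29 in Ly6Chi cells. After the GC correction the first was -0.99, just inside 2-fold.

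Cdt1, which loads the MCM helicase onto origins (chr8:122568015-122573554), was the only member at least 2-fold different in the same direction in both subsets. It was at 6.47 and 2.45 FPKM in control and RBP-J-deficient Ly6Clo monocytes and 8.16 and 2.29 in the respective Ly6Chi libraries. Both RBP-J-deficient libraries lay under both control libraries, with log2 ratios of -1.11 in Ly6Clo and -1.48 in Ly6Chi cells. Cdt1 has the most GC-rich transcript of the 41 (57.8% GC), and after the GC correction the ratios were -0.65 and -1.25, so that the first was no longer a 2-fold difference. Rrm2, the regulated subunit of ribonucleotide reductase, which makes deoxynucleotides (chr12:24708241-24714146), was at 1.86 and 0.0651 FPKM in control and RBP-J-deficient Ly6Clo monocytes and 1.71 and 0.545 in the respective Ly6Chi libraries. It was lower in RBP-J-deficient cells of both subsets, with log2 ratios of -1.42 and -0.81, on levels under 2 FPKM throughout. Its partner Rrm1 was at 8.36 and 7.24 FPKM in control and RBP-J-deficient Ly6Clo monocytes and 3.54 and 5.73 in the respective Ly6Chi libraries, with log2 ratios of -0.18 and 0.57.

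Stmn1, which encodes the microtubule-destabilising protein stathmin (chr4:134468320-134473843), was the 1 member called higher in RBP-J-deficient Ly6Clo cells. It was at 7.85 and 19.2 FPKM in control and RBP-J-deficient Ly6Clo monocytes and 2.53 and 5.28 in the respective Ly6Chi libraries. The RBP-J-deficient library was above the control one in both subsets, with log2 ratios of 1.19 in Ly6Clo and 0.83 in Ly6Chi cells, and the first became 0.92 after rescaling to a common sum. Tk1, thymidine kinase of the salvage pathway, fell just short of the threshold in Ly6Clo cells and passed it in Ly6Chi cells. It was at 0.762 and 2.49 FPKM in control and RBP-J-deficient Ly6Clo monocytes and 0.338 and 1.89 in the respective Ly6Chi libraries, with log2 ratios of 0.98 and 1.11. Both RBP-J-deficient libraries were thus above both control libraries, the reverse of Cdt1, on levels under 3 FPKM. After the GC correction the ratios of Tk1 were 1.08 and 1.15, both past 2-fold. Exons of Tk1 overlap Afmid on the opposite strand.

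In Ly6Chi monocytes RBP-J-deficient cells had higher values of Bub1b, Cdc20 and Tk1 and lower ones of Gins2 and Cdt1. Of 41, 3 were at least 2-fold higher in RBP-J-deficient cells (7.32%), against 1.13% of all symbols and 2.44% of those with a mean of at least 1 FPKM, and 2 were at least 2-fold lower (4.88%), against 1.95% and 4.27%. The higher share was above both backgrounds, on 3 genes. The lower one was above that of all symbols and near that of expressed ones, on 2 genes. The expressed background is of an unlike set, and of the 24 members with a mean of at least 1 FPKM, 3 were higher and 2 lower. Among the called genes Cdt1 was the 1 called in Ly6Clo cells too. The median log2 ratio was 0.17 over S phase members and 0.029 over mitotic members, beside 0.012 over symbols with a mean of at least 1 FPKM. The mitotic median rests on genes near 0, and over the 9 mitotic members with a mean of at least 1 FPKM it was 0.51. Camp and Ngp were higher in the same library, as given above. Of the 8 neutrophil and precursor markers, 4 were lower there and 2 had a ratio of 0. The 8 summed to 70.8 FPKM in control and 63.1 in RBP-J-deficient Ly6Chi cells, and all 4 progenitor markers were lower. The part of these markers in the ratios was not tested.

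Bub1b encodes BUBR1, which holds back anaphase until all chromosomes are attached (chr2:118598211-118641591), and was at 2.77 and 2.78 FPKM in control and RBP-J-deficient Ly6Clo monocytes and 1.45 and 4.64 in the respective Ly6Chi libraries. Its log2 ratio was 0.0040 in Ly6Clo and 1.20 in Ly6Chi cells, where it was the highest of all members. Cdc20, the activator of the anaphase-promoting complex that BUBR1 restrains (chr4:118432901-118437352), was at 2.55 and 1.43 FPKM in control and RBP-J-deficient Ly6Clo monocytes and 0.2902 and 1.61 in the respective Ly6Chi libraries. The low value of control Ly6Chi cells set its ratio of 1.01 in that subset, the ratio in Ly6Clo cells being -0.54. The other side was Gins2, a subunit of the GINS complex that joins the helicase to the polymerase (chr8:120578633-120589304), at 7.77 and 8.84 FPKM in control and RBP-J-deficient Ly6Clo monocytes and 3.44 and 0.445 in the respective Ly6Chi libraries. RBP-J-deficient Ly6Chi cells stood below the other 3 libraries, and the log2 ratio was -1.62 in Ly6Chi and 0.17 in Ly6Clo cells. Exons of Cdc20 overlap Elovl1, and those of Gins2 overlap Gse1, each on the opposite strand.

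**Figure D3:**
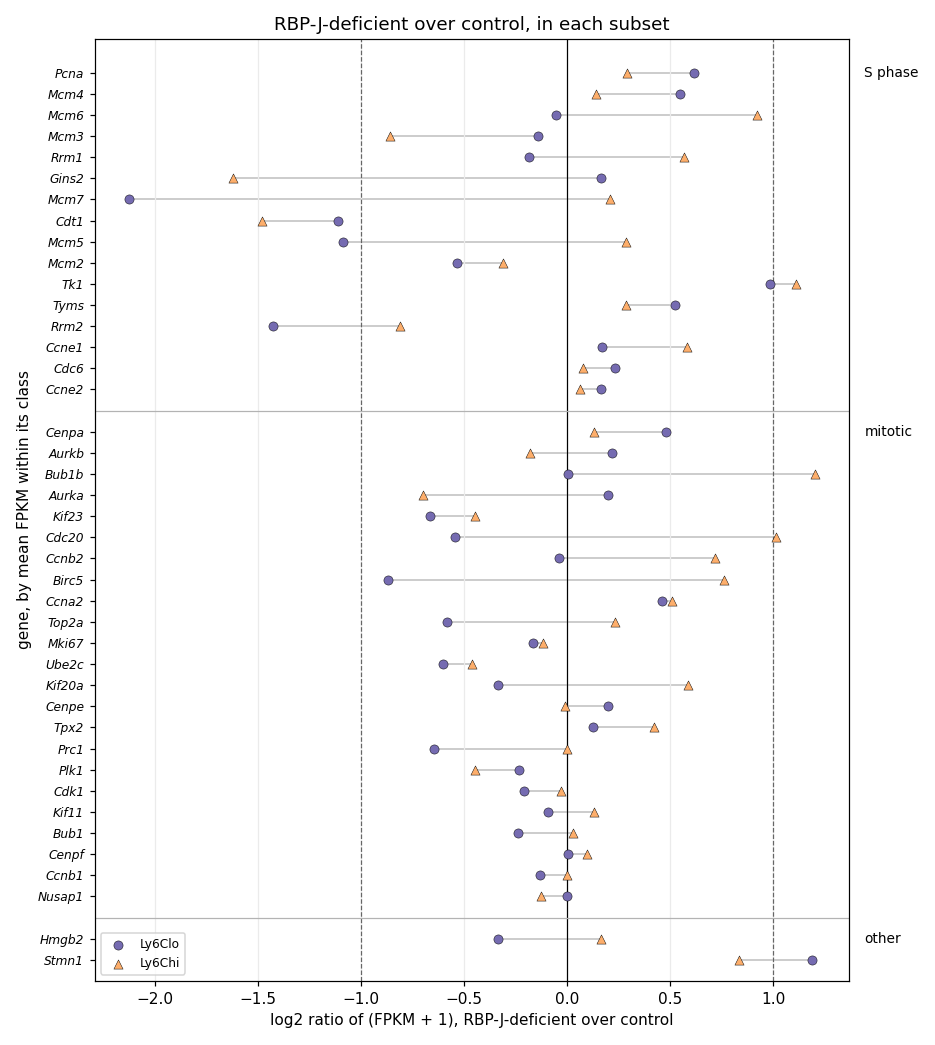
Ratio of RBP-J-deficient to control, as log2 of (FPKM + 1), of each member in Ly6Clo (circles) and Ly6Chi (triangles) monocytes, with dashed lines at 2-fold. Mcm7, Mcm5, Rrm2 and Cdt1 lie left of the lower line and Stmn1 right of the upper one in Ly6Clo cells, and Cdt1 alone is past the same line in both subsets.

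Read side by side, both genotype comparisons gave 13 of 41 members a ratio above 0 in both subsets and 9 a ratio below 0 in both, while 4 were above 0 in Ly6Clo and below in Ly6Chi cells, 13 were the reverse, and 2 had a ratio of 0 in one. The ratios had the same sign in 53.7% of members and in 70.6% of symbols with a mean of at least 1 FPKM. The genotype comparisons of the 2 subsets share no library. Of the 41 members, 9 (21.95%) were at least 2-fold different in either subset, against 10.4% of all symbols and 24.4% of those with a mean of at least 1 FPKM. Of the 24 members with such a mean, 9 (37.5%) were so. Of these 9, 1 (11.1%) was so in the same direction in both, beside 11.2% of the expressed symbols called in either. The 6 genes of the MCM helicase, whose products work as a ring of equal parts, did not move as 1 block: their log2 ratios ran from -2.12 (Mcm7) to 0.55 (Mcm4) in Ly6Clo cells and from -0.86 (Mcm3) to 0.92 (Mcm6) in Ly6Chi cells. In Ly6Clo cells they summed to 69.4 FPKM for the control library and 61.1 for the RBP-J-deficient one, and 27.9 and 30.8 in Ly6Chi cells. The highest MCM gene exceeded the lowest 6.65-fold in control and 14.7-fold in RBP-J-deficient Ly6Clo cells, and 8.58-fold and 14.6-fold in Ly6Chi cells.

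Between the subsets, 4 of 16 S phase members were at least 2-fold lower in Ly6Chi than in Ly6Clo monocytes in each genotype, Mcm6 in both, and 1, Ccne1, was at least 2-fold higher in RBP-J-deficient cells. In control cells 14 of 16 S phase members had a lower level in Ly6Chi cells and in RBP-J-deficient cells 13 of 16, 12 being lower in both; the median log2 ratio of Ly6Chi over Ly6Clo was -0.40 and -0.28, beside -0.0029 and -0.027 over symbols with a mean of at least 1 FPKM. Over mitotic members the median was -0.24 for control cells and 0.029 for RBP-J-deficient ones, or -0.29 and 0.54 over the 9 with a mean of at least 1 FPKM. Of the 41 members, 7 were at least 2-fold lower in control Ly6Chi cells (17.1%), against 2.22% of all symbols and 5.11% of expressed ones, and 1 was higher (2.44%), against 3.31% and 7.6%. In RBP-J-deficient cells 6 were lower (14.6%), against 3.59% and 8.26%, and 4 were higher (9.76%), against 4.51% and 10.6%. The share of lower members was above both backgrounds in each genotype, by the widest margin in control cells, and the share of higher ones lay under both in control cells and between them in RBP-J-deficient cells. Of the 24 members with a mean of at least 1 FPKM, 6 were lower and 1 higher in control Ly6Chi cells. In RBP-J-deficient Ly6Chi cells 6 of them were lower and 3 higher. These comparisons share their libraries with the genotype comparisons, and the 2 subset comparisons share none with each other. Markers of other cells moved in both directions between the subsets: summed B cell markers were lower in Ly6Chi cells of both genotypes and erythroid markers in control Ly6Chi cells, while summed progenitor, neutrophil and platelet markers were higher in Ly6Chi cells of both, as given above, though the progenitor gene Cd34 was at 1.18 FPKM in control Ly6Clo and 0.881 in control Ly6Chi cells. Their part in the ratios was not tested.

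In control cells the lowest ratios of Ly6Chi over Ly6Clo were those of Mcm6, Mcm7 and Mcm5, and in RBP-J-deficient cells those of Gins2 and Stmn1. Mcm6 (chr1:128331590-128359664), whose promoter held 3 E2F matches, was at 21.5 and 20.7 FPKM in control and RBP-J-deficient Ly6Clo monocytes and 3.91 and 8.31 in the respective Ly6Chi libraries, with a log2 ratio of Ly6Chi over Ly6Clo of -2.20 for control cells and -1.22 for RBP-J-deficient ones. Both Ly6Clo libraries were above both Ly6Chi libraries, and among the S phase members Mcm6 alone was at least 2-fold lower in both genotypes. Mcm4 was at 17.1 and 25.4 FPKM in control and RBP-J-deficient Ly6Clo monocytes and 10.9 and 12.1 in the respective Ly6Chi libraries, with ratios of -0.60 and -1.01, the second of which was -0.77 after the GC correction. Mcm3 was at 9.34 and 8.38 FPKM in control and RBP-J-deficient Ly6Clo monocytes and 6.78 and 3.29 in the respective Ly6Chi libraries, with -0.41 and -1.13, or -0.98 in RBP-J-deficient cells after rescaling to a common sum. Mcm2, the lowest of the 6 by mean level, was at 3.23 and 1.92 FPKM in control and RBP-J-deficient Ly6Clo monocytes and 1.27 and 0.831 in the respective Ly6Chi libraries, with -0.90 and -0.67. In these 4 genes no Ly6Chi library reached a Ly6Clo library of its own genotype. Mcm5 and Mcm7 were at least 2-fold lower in control cells only, with ratios of -1.52 and -1.54 there and -0.14 and 0.79 in RBP-J-deficient cells; the same control Ly6Clo values enter their genotype ratios, and the difference between the genotypes was not tested. Gins2 had log2 ratios of -0.98 for control cells and -2.77 for RBP-J-deficient ones, and Rrm1 had -1.04 and -0.29, the first becoming -0.93 after the GC correction. Pcna differed by -0.32 and -0.64.

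Stmn1 was the other member at least 2-fold lower in Ly6Chi cells of both genotypes, with ratios of -1.33 and -1.68. Among mitotic members Top2a, the topoisomerase that untangles replicated chromosomes, was at 1.33 and 0.554 FPKM in control and RBP-J-deficient Ly6Clo monocytes and 0.149 and 0.351 in the respective Ly6Chi libraries, a ratio of -1.02 in control cells, or -0.91 after the GC correction, and -0.20 in RBP-J-deficient ones. Cdc20 had a ratio of -1.46 in control cells and 0.10 in RBP-J-deficient ones. Aurka, the kinase of spindle poles, was at 3.43 and 4.09 FPKM in control and RBP-J-deficient Ly6Clo monocytes and 2.63 and 1.23 in the respective Ly6Chi libraries, with ratios of -0.29 and -1.19. Cenpe, a kinesin of the kinetochore, was at 0.476, 0.695, 0.0145 and 0.007896 FPKM in control Ly6Clo, RBP-J-deficient Ly6Clo, control Ly6Chi and RBP-J-deficient Ly6Chi cells, so that both Ly6Chi values were close to 0 and all 4 were under 1 FPKM.

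A few genes ran the other way. Aurkb, the kinase of the chromosomal passenger complex (chr11:69045647-69051664), was at 0.944 and 1.26 FPKM in control and RBP-J-deficient Ly6Clo monocytes and 5.27 and 4.54 in the respective Ly6Chi libraries. Both Ly6Chi libraries were above both Ly6Clo libraries, and it was the only member at least 2-fold higher in Ly6Chi cells of both genotypes, with log2 ratios of 1.69 and 1.29. Birc5, which encodes survivin, a partner of Aurora B in that complex (chr11:117849251-117855743), was at 0.856 and 0.0166 FPKM in control and RBP-J-deficient Ly6Clo monocytes and 1.21 and 2.74 in the respective Ly6Chi libraries, with ratios of 0.25 and 1.88. Ccnb2, cyclin B2, was at 0.343 and 0.3096 FPKM in control and RBP-J-deficient Ly6Clo monocytes and 1.64 and 3.34 in the respective Ly6Chi libraries, with 0.97 and 1.73. Ccne1, cyclin E1, which drives entry into S phase, was at 0, 0.125, 0.939 and 1.903 FPKM in the order control Ly6Clo, RBP-J-deficient Ly6Clo, control Ly6Chi and RBP-J-deficient Ly6Chi, with 0.96 and 1.37, and was listed at 0 in the first. Ccnb2 and Ccne1 thus had the order RBP-J-deficient Ly6Chi, control Ly6Chi and then both Ly6Clo libraries, on levels under 4 FPKM.

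Cenpa, the histone variant that marks centromeres, was the highest mitotic member, at 4.25 and 6.33 FPKM in control and RBP-J-deficient Ly6Clo monocytes and 8.76 and 9.68 in the respective Ly6Chi libraries, with ratios of 0.89 for control cells and 0.54 for RBP-J-deficient ones. Hmgb2 differed by 0.44 and 0.94, higher in Ly6Chi cells of both genotypes. Its transcript is AT-rich (38.7% GC), and after the GC correction the ratios were 0.62 and 1.35. Plk1, a kinase that starts mitosis, was at 0.175, 0, 0.602 and 0.177 FPKM in the same order of libraries, with ratios of 0.45 and 0.23, and Kif20a, a kinesin of the late spindle, at 0.315, 0.0411, 0.152 and 0.7305 FPKM, with -0.19 and 0.73. These last values are under 1 FPKM and too low to be called at 2-fold on this scale.

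**Figure D4:**
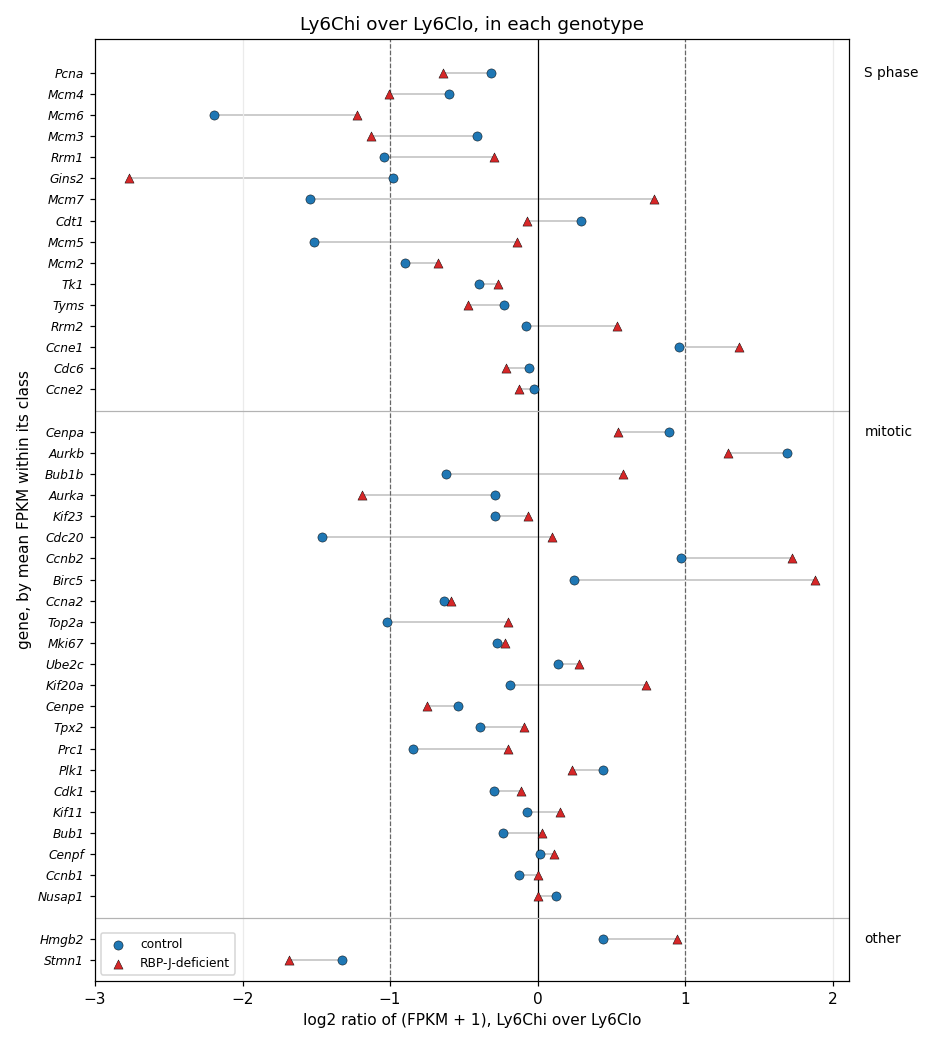
Log2 ratio of (FPKM + 1), Ly6Chi over Ly6Clo, of each member in control (circles) and RBP-J-deficient (triangles) monocytes, with dashed lines at 2-fold. Most S phase genes lie left of 0 in both genotypes, Mcm6 and Stmn1 left of the lower line in both, and Aurkb right of the upper line in both.

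Over all 4 comparisons 19 of the 41 were at least 2-fold different in at least 1 (46.3%) and 22 in none. Of all symbols 15.7% were so in at least 1, and of symbols with a mean of at least 1 FPKM 36.3%. Of the 24 members with such a mean, 17 (70.8%) were so. Of the 22, the S phase genes Tyms, Cdc6 and Ccne2 were at 0.676 to 1.83, 0.239 to 0.517 and 0.0151 to 0.158 FPKM over the libraries. Tyms makes thymidylate, Cdc6 loads the helicase with Cdt1, and Ccne2 is the second cyclin E. Ccna2, cyclin A2, which acts in S phase and G2, was at 1.16 and 1.97 FPKM in control and RBP-J-deficient Ly6Clo monocytes and 0.391 and 0.979 in the respective Ly6Chi libraries, the RBP-J-deficient library being above the control one in both subsets. Kif23, a kinesin of cytokinesis, was at 2.63 and 1.28 FPKM in control and RBP-J-deficient Ly6Clo monocytes and 1.97 and 1.18 in the respective Ly6Chi libraries, the RBP-J-deficient library being below the control one in both. The mitotic genes Cdk1, Tpx2, Prc1 and Ube2c stayed under 1 FPKM in every library.

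Further genes of the same processes were read in the same way. Of 40 further replication genes (polymerases, clamp loaders, origin factors and chromatin assembly), 6 were at least 2-fold lower and 2 higher in RBP-J-deficient Ly6Clo cells, with a median log2 ratio of -0.023, and 1 lower and 2 higher in Ly6Chi cells, with a median of -0.0099. In Ly6Clo cells these are 15% lower and 5% higher, beside 4.73% and 3.83% of all symbols and 11.4% and 9.22% of those with a mean of at least 1 FPKM. In Ly6Chi cells they are 2.5% lower and 5% higher, beside 1.95% and 1.13% of all symbols and 4.27% and 2.44% of expressed ones. Of the 40, 30 had a mean of at least 1 FPKM, so these shares are of unlike sets. The largest on the lower side in Ly6Clo cells was Pold2, a subunit of DNA polymerase delta, at 12.2 and 1.42 FPKM in control and RBP-J-deficient Ly6Clo monocytes and 10.04 and 5.54 in the respective Ly6Chi libraries (log2 ratio -2.45 in Ly6Clo cells). Its transcript is GC-rich (58.7% GC) and the ratio was -1.94 after the GC correction. Chaf1b, of the chromatin assembly factor that puts histones on new DNA, was at 5.54 and 0.4205 FPKM in control and RBP-J-deficient Ly6Clo monocytes and 3.82 and 4.98 in the respective Ly6Chi libraries (-2.20). Fen1, the nuclease that trims Okazaki fragments, was at 31.2 and 9.41 FPKM in control and RBP-J-deficient Ly6Clo monocytes and 17.1 and 17.6 in the respective Ly6Chi libraries (-1.63). In all 3 the RBP-J-deficient Ly6Clo library stood below the other 3 libraries. On the higher side were Rpa3, the small subunit of the single-strand binding protein, at 47.4 and 137 FPKM in control and RBP-J-deficient Ly6Clo monocytes and 43.3 and 64.5 in the respective Ly6Chi libraries (1.51), and Pole2, of DNA polymerase epsilon, at 1.36 and 4.61 FPKM in control and RBP-J-deficient Ly6Clo monocytes and 2.35 and 1.81 in the respective Ly6Chi libraries (1.25). Rpa3 has an AT-rich transcript (34.2% GC), and after the GC correction the ratios were 0.93 for Rpa3 and 0.92 for Pole2, so that neither was a 2-fold difference.

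In Ly6Chi cells the further replication genes past 2-fold were Prim1, of the primase, at 3.39 and 5.28 FPKM in control and RBP-J-deficient Ly6Clo monocytes and 0.0689 and 1.56 in the respective Ly6Chi libraries (log2 ratio 1.26), Gins1, a partner of Gins2, at 6.23 and 10.4 FPKM in control and RBP-J-deficient Ly6Clo monocytes and 2.28 and 6.45 in the respective Ly6Chi libraries (1.18), and, lower, Dnmt1, the maintenance DNA methyltransferase, at 2.28 and 1.05 FPKM in control and RBP-J-deficient Ly6Clo monocytes and 5.26 and 1.87 in the respective Ly6Chi libraries (-1.12). Gins1 and Gins2, parts of 1 complex, thus had ratios of opposite sign in Ly6Chi cells. Between subsets, 31 of the 40 were lower in control Ly6Chi than in control Ly6Clo cells, and 24 of 40 in RBP-J-deficient cells, with 5 at a ratio of 0. The medians of -0.38 and -0.30 were close to those of the 16 S phase members, -0.40 and -0.28. At least 2-fold lower in Ly6Chi cells were 6 in control (15%) and 7 in RBP-J-deficient cells (17.5%), 4 of them in both. Of all symbols 2.22% and 3.59% were so, and of those with a mean of at least 1 FPKM 5.11% and 8.26%.

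Of 40 further mitotic genes, 2 were at least 2-fold higher and 1 lower in RBP-J-deficient Ly6Clo cells and 1 was higher in Ly6Chi cells. These are 5%, 2.5% and 2.5%, beside 3.83%, 4.73% and 1.13% of all symbols. Among symbols with a mean of at least 1 FPKM the shares were 9.22%, 11.4% and 2.44%. Of the 40, 13 had such a mean, so these shares are of unlike sets. Mad2l1, the checkpoint protein MAD2, was past 2-fold in both subsets, at 3.99 and 10.7 FPKM in control and RBP-J-deficient Ly6Clo monocytes and 1.94 and 5.99 in the respective Ly6Chi libraries, with log2 ratios of 1.23 and 1.25, or 0.78 and 1.06 after the GC correction. Cks1b, a small cofactor of cyclin-dependent kinases, was at 25.2 and 57.7 FPKM in control and RBP-J-deficient Ly6Clo monocytes and 12.5 and 21.2 in the respective Ly6Chi libraries, with 1.16 and 0.72, and the condensin gene Ncaph was the lower one, at 1.64 and 0.301 FPKM in control and RBP-J-deficient Ly6Clo monocytes and 0.777 and 1.24 in the respective Ly6Chi libraries, with -1.02 in Ly6Clo cells. Of the 40, 23 were under 1 FPKM in every library, among them 7 listed at 0 in all 4, for which no level can be given. Between subsets, 25 of the 40 were lower in control Ly6Chi than in control Ly6Clo cells, 8 were higher and 7 had a ratio of 0. In RBP-J-deficient cells 17 were lower, 10 higher and 13 at a ratio of 0. At least 2-fold lower in Ly6Chi cells were 5 in control (12.5%) and 7 in RBP-J-deficient cells (17.5%), 4 of them in both. Of all symbols 2.22% and 3.59% were so, and of symbols with a mean of at least 1 FPKM 5.11% and 8.26%. Racgap1 alone was at least 2-fold higher in Ly6Chi cells of both genotypes.

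**Figure D5:**
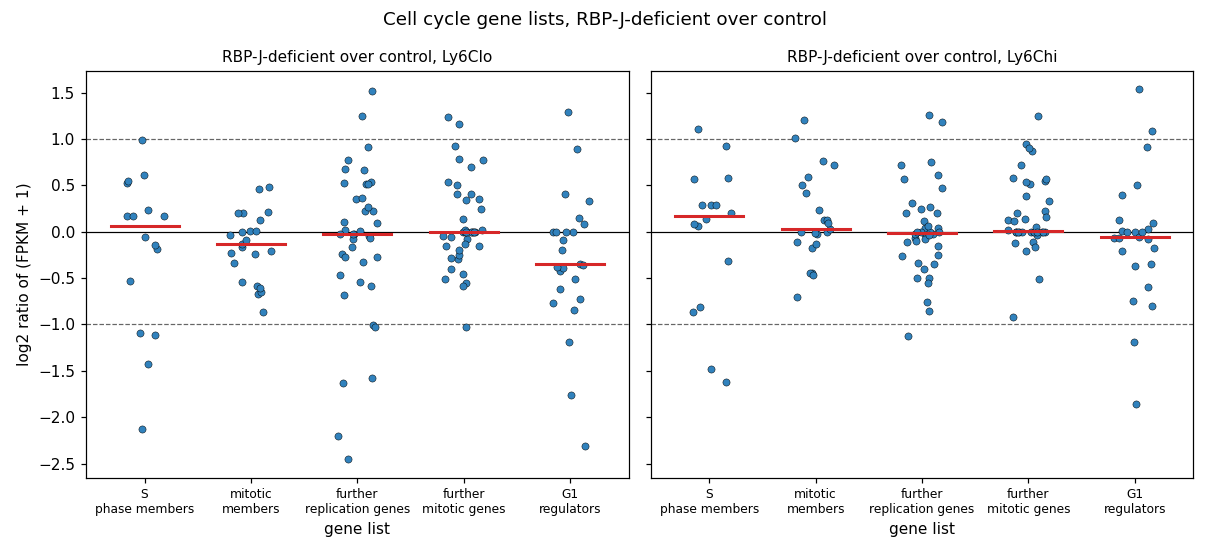
Ratio of RBP-J-deficient to control, as log2 of (FPKM + 1), in Ly6Clo (left) and Ly6Chi (right) monocytes for 5 gene lists (1 point per gene, red line the median, dashed lines 2-fold, points spread sideways only to separate them). Medians lie near 0 for most lists, and the points past the lower line in Ly6Clo cells are mostly S phase, further replication and G1 genes.

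The G1 regulators, which decide whether a cell enters the cycle, had a median level of 12.3, 6.44, 7.70 and 6.52 FPKM in control Ly6Clo, RBP-J-deficient Ly6Clo, control Ly6Chi and RBP-J-deficient Ly6Chi cells, and 3 of them were listed at 0 in all 4. Of 25, 3 were at least 2-fold lower and 1 higher in RBP-J-deficient Ly6Clo cells, and 2 lower and 2 higher in Ly6Chi cells, with median log2 ratios of -0.35 and -0.062. The lower share in Ly6Clo cells (12%) was close to that of expressed symbols (11.4%), the higher one (4%) under it (9.22%), and both shares in Ly6Chi cells (8%) were above theirs (4.27% and 2.44%), on 2 genes each. Of all symbols, 4.73% were lower and 3.83% higher in Ly6Clo cells, and 1.95% lower and 1.13% higher in Ly6Chi cells. Of the 25, 18 had a mean of at least 1 FPKM, so these shares are of unlike sets. Ccnd3, cyclin D3, which with CDK4 and CDK6 inactivates RB, was at 142 and 27.9 FPKM in control and RBP-J-deficient Ly6Clo monocytes and 201 and 87.5 in the respective Ly6Chi libraries. Both RBP-J-deficient libraries lay under both control libraries, with log2 ratios of -2.31 and -1.19. After the GC correction (56.7% GC) they were -1.90 and -0.99, the second just inside 2-fold. Ccnd2, cyclin D2, was at 19.995 and 25.4 FPKM in control and RBP-J-deficient Ly6Clo monocytes and 1.43 and 6.05 in the respective Ly6Chi libraries, with 0.33 and 1.54; its control Ly6Chi library stood lowest.

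Inhibitors and other regulators also differed. Cdkn1a, which encodes the cyclin-dependent kinase inhibitor p21, was at 44.9 and 111 FPKM in control and RBP-J-deficient Ly6Clo monocytes and 45.1 and 48.1 in the respective Ly6Chi libraries: the RBP-J-deficient Ly6Clo library stood above 3 that were alike, with a log2 ratio of 1.29 in Ly6Clo and 0.093 in Ly6Chi cells. Cdkn1b (p27) was at 257 and 341 FPKM in control and RBP-J-deficient Ly6Clo monocytes and 82.8 and 177 in the respective Ly6Chi libraries, with 0.41 and 1.09, the second becoming 0.93 after the GC correction. Cdkn2c (p18) was at 4.47 and 0.6201 FPKM in control and RBP-J-deficient Ly6Clo monocytes and 5.71 and 5.43 in the respective Ly6Chi libraries, with -1.76 and -0.062, and E2f2, an activating E2F, at 13.7 and 5.43 FPKM in control and RBP-J-deficient Ly6Clo monocytes and 16.8 and 15.9 in the respective Ly6Chi libraries, with -1.19 and -0.074; in both the RBP-J-deficient Ly6Clo library was the low one. Both transcripts are GC-rich (58.0% and 56.6% GC), and after the GC correction the Ly6Clo ratios were -1.28 for Cdkn2c and -0.79 for E2f2, the latter no longer a 2-fold difference. Myc, which promotes growth and cycle entry, was at 0.442 and 0.111 FPKM in control and RBP-J-deficient Ly6Clo monocytes and 2.902 and 0.0744 in the respective Ly6Chi libraries, with -0.38 and -1.86, on levels under 3 FPKM.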

How the data were processed

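RNA from sorted blood monocytes was sequenced with paired ends, 1 library for each of 4 groups. The authors deposited a table of FPKM values per gene for each of the 6 pairs of libraries, with columns and status codes as Cuffdiff writes them. The submitters' processing notes name CASAVA 1.8, TopHat2 2.1.0, Cufflinks 2.2.1 and mm10, and the annotation and strand setting are not given in the sources used here. The table's own log2 fold change, test statistic, p-value and q-value columns hold the authors' comparisons of single libraries and were not used.

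Log2 ratios were computed on (FPKM + 1) from the pair compared, and rows sharing a symbol were summed. The members' FPKM were identical in every pair. No test was made with 1 library per group. The members and the other gene lists were chosen with earlier results of these data known. Named genes were Mki67, the 6 members of highest mean FPKM, members and G1 regulators at least 2-fold different between genotypes, up to 8 members per direction between subsets, and up to 3 genes per further list and direction. Alternatives were pseudocounts of 0.1 and 5, genes with a mean of at least 1 FPKM only, rescaling to TPM, centring on the median gene and a 1.5-fold threshold. Chosen after seeing the data was a GC correction, which subtracted the lowess trend (fraction 0.3, 3 iterations) of log2 ratios on transcript GC content (longest transcript per gene in GENCODE vM21), fitted on 6086 genes with a mean of at least 5 FPKM and applied to every gene. Ratios and correction were tested on simulated data, with changes larger than 2-fold put into genes of a higher level than most members. That test does not cover the low levels at which most members lie. Gene coordinates are those of GENCODE on GRCm38 and promoters those of RefSeq. Python 3.11.15, numpy 2.4.6, pandas 2.3.3 and statsmodels 0.14.6 were used.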

Additional observations from a re-analysis of the deposited data

Results flagged for a closer look

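Some results had opposite directions in the 2 subsets for RBP-J-deficient over control; with 1 library per group none of these differences was tested. Mcm7 had a log2 ratio of -2.12 in Ly6Clo and 0.21 in Ly6Chi cells, and Mcm5 of -1.09 and 0.29. Cdc20 had -0.54 in Ly6Clo and 1.01 in Ly6Chi cells. Gins2 ran the other way, with 0.17 in Ly6Clo and -1.62 in Ly6Chi cells. The median over the 23 mitotic members was -0.13 in Ly6Clo and 0.029 in Ly6Chi cells, and over the 9 with a mean of at least 1 FPKM it was 0.0040 and 0.51.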

How the results depend on the processing

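No paired analysis was possible because the labels give no replicate numbers and each group holds 1 library. The medians and counts of the members were recomputed under each alternative; a count is said to hold when it is within 1.5 times the reported one and a median when it keeps its sign and its side of 2-fold. Of 104 such recomputed values, 72 held, 26 counts did not and 6 medians changed sign. The median of S phase members in Ly6Clo cells, RBP-J-deficient over control, was 0.057 and became -0.0041 with a pseudocount of 5, -0.14 over the 13 with a mean of at least 1 FPKM, -0.23 after rescaling to TPM and -0.12 after the GC correction. That of mitotic members in Ly6Clo cells became 0.0040 over the 9 with a mean of at least 1 FPKM, and in Ly6Chi cells -0.10 after the GC correction. The correction also shifts genes without a level: Ccnb1, listed at 0 in both Ly6Chi libraries, went from 0 to -0.15. The corrected median is the value of Cdk1, at 0.160 and 0.139 FPKM in control and RBP-J-deficient Ly6Chi cells. No direction is read from these medians, and the part of such genes in them was not tested. Without a change of sign, the mitotic median of 0.029 moved to 0.51 for genotype in Ly6Chi cells, and to 0.54 for subset in RBP-J-deficient cells, over those 9.

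Counts below are in the order genotype in Ly6Clo, genotype in Ly6Chi, subset in control and subset in RBP-J-deficient cells, where the reported counts were 1, 3, 1 and 4 higher and 4, 2, 7 and 6 lower. With a pseudocount of 0.1, which lets low genes pass, they were 3, 9, 5 and 10 higher and 11, 7, 15 and 9 lower. With a pseudocount of 5, which pulls low genes towards 0, they were 0, 0, 0 and 0 higher and 1, 0, 1 and 2 lower. With a 1.5-fold threshold they were 3, 8, 4 and 7 higher and 8, 5, 13 and 10 lower. After rescaling to TPM the higher counts were 0, 3, 3 and 5, and after the GC correction 2, 3, 1 and 5. Of the 28 member ratios past 2-fold over the 4 comparisons, none changed sign under any of the 6 alternatives applied to them; 28 stayed past 2-fold with a pseudocount of 0.1, 27 after centring, 25 after rescaling, 23 after the GC correction and 4 with a pseudocount of 5, which were those of Mcm7 in Ly6Clo cells, Mcm6 in control cells, and Gins2 and Stmn1 in RBP-J-deficient cells.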

Other observations

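Histone genes of the clusters, most of which are copied into RNA during S phase, were also read, in a set picked by symbol after the data were seen. The 68 rows whose symbol begins with Hist and a cluster number summed to 589 FPKM in control and 773 in RBP-J-deficient Ly6Clo cells, and to 849 and 743 in Ly6Chi cells. In Ly6Clo cells 9 were at least 2-fold higher with RBP-J deficiency and 8 lower, with a median log2 ratio of 0, and in Ly6Chi cells 2 and 3. In Ly6Clo cells these are 13.2% and 11.8%, beside 3.83% and 4.73% of all symbols and 9.22% and 11.4% of those with a mean of at least 1 FPKM. In Ly6Chi cells they are 2.94% and 4.41%, beside 1.13% and 1.95% of all symbols and 2.44% and 4.27% of expressed ones. Of the 68, 35 had a mean of at least 1 FPKM, so these shares are of unlike sets. The highest by mean was Hist1h2bc, at 65.97 and 125 FPKM in control and RBP-J-deficient Ly6Clo cells and 87.1 and 66.3 in Ly6Chi cells. Hist1h1c, a linker histone also made outside S phase, had the lowest ratio in Ly6Clo cells, -2.57, at 26.1 and 3.57 FPKM in control and RBP-J-deficient Ly6Clo cells and 19.5 and 19.1 in Ly6Chi cells, and Hist2h2ac the highest, 1.98, at 0.535 and 5.05 FPKM in control and RBP-J-deficient Ly6Clo cells and 1.22 in control Ly6Chi cells, and listed at 0 in RBP-J-deficient Ly6Chi cells. Histone genes are near copies of each other, so reads may be split among them, and how far their RNA, which mostly lacks a poly(A) tail, was captured is not given in the sources used here.

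Some cell cycle genes outside the 41 were far higher than most members. Pttg1, which encodes securin, the guard of sister chromatid cohesion, was at 217 and 373 FPKM in control and RBP-J-deficient Ly6Clo monocytes and 141 and 265 in the respective Ly6Chi libraries, and Cks2 at 103 and 123 FPKM in control and RBP-J-deficient Ly6Clo monocytes and 50.4 and 73.4 in the respective Ly6Chi libraries, while Cdk1, the kinase that CKS proteins bind, stayed under 1 FPKM in every library. Slbp, which binds the end of histone mRNA, was at 160.0 and 171 FPKM in control and RBP-J-deficient Ly6Clo monocytes and 108 and 125 in the respective Ly6Chi libraries, and Rfc2, of the clamp loader, at 115 and 167 FPKM in control and RBP-J-deficient Ly6Clo monocytes and 134 and 154 in the respective Ly6Chi libraries. Racgap1, which works in cytokinesis, was at 3.51 and 2.79 FPKM in control and RBP-J-deficient Ly6Clo monocytes and 18.2 and 18.9 in the respective Ly6Chi libraries, the Ly6Chi libraries being above the Ly6Clo ones in both genotypes. Btg1, an antiproliferative gene, was at 395 and 734 FPKM in control and RBP-J-deficient Ly6Clo monocytes and 218 and 411 in the respective Ly6Chi libraries, the RBP-J-deficient library being the higher in both subsets.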
